A study of Mus musculus with 2 samples.

Results

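The heat shock proteins, J-proteins and chaperonin subunits are the protein-folding machines of the cell, and they were followed here through 111 probes for 81 gene names, of 39429 probes and 31829 names on the array. Members were all probes whose gene name is that of an HSP70, HSP110, HSP90, HSP60, HSP10 or small heat shock protein, of a DNAJA, DNAJB or DNAJC protein, or of a subunit of the chaperonin TRiC, also called CCT (names Cct2 to Cct8 and Tcp1). The rule uses names and no measured value. All 81 names matched a RefSeq gene. A single array was hybridised for each of 2 clones of mouse epiblast stem cells (EpiSC), a primed pluripotent cell type like the epiblast just after implantation. Both clones, clone 1 and clone 2, were wildtype, female, of C57BL/6 background and at passage 9. The labels name no heat shock or other agent beyond the trypsin used to collect the cells, and each array was made from 0.2 ug of RNA. With 1 array per clone, a difference between clones cannot be told apart from one between cultures, RNA preparations or arrays, and no test was possible.

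Chaperones hold or refold proteins that would otherwise clump. HSP70 binds exposed stretches of a client under control of ATP, a J-protein (DNAJA, DNAJB or DNAJC) brings the client and starts the ATP cycle, and HSP110 resets it by exchanging the nucleotide. HSP90 finishes signalling proteins such as kinases and receptors, HSP60 with its lid HSP10 folds proteins inside mitochondria, and the CCT ring folds actin and tubulin in the cytosol. Under stress, heat shock factor 1 (HSF1) binds repeats of the unit GAA, called heat shock elements, and raises a small inducible set, of which Hspa1a and Hspa1b are the best known. Small heat shock proteins hold unfolded clients without ATP, and several are best known from muscle.

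Promoters of Hspa1a, Hspb1 and Hspe1 of the inducible set are shown because heat shock elements are what HSF1 binds. Dnajb6, which is not in that set, is shown with them for its heat shock element. A probe is shown because it is shared, which limits what can be said of the inducible HSP70. Both inducible HSP70 genes were read through 1 probe. It is named for Hspa1a, it lies at chr17:35107117-35107176 (mm9, minus strand), and its annotation lists transcripts of Hspa1a and of Hspa1b, so its signal cannot be assigned to either gene. No probe carried the name Hspa1b. The probe and the RefSeq promoters (GRCm38.p6) of 4 member genes follow, each promoter as the 160 bases before the annotated start, with heat shock elements in capitals.
Hspa1a probe: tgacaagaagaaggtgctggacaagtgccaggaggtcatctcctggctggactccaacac
Hspa1a: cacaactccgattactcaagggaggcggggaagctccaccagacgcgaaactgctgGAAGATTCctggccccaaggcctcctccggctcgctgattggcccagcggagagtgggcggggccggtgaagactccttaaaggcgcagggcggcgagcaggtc
Hspb1: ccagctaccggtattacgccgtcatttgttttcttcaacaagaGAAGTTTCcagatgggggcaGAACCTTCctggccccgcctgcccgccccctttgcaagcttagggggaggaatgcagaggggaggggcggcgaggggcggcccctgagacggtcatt
Hspe1: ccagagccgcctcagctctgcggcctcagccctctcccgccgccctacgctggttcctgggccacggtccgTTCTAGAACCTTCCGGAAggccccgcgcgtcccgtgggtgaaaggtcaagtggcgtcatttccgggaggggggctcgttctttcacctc
Dnajb6: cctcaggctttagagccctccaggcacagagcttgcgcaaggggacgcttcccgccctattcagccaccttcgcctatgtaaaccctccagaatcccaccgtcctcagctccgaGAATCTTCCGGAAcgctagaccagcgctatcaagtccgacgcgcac
These stretches lie at chr17:34972157-34972316 (minus strand) for Hspa1a, chr5:135887759-135887918 for Hspb1, chr1:55087988-55088147 for Hspe1 and chr5:29735738-29735897 for Dnajb6 (plus strand). The search used windows from 250 bases before to 50 after the start on both strands. A 2-unit element was GAANNTTC or TTCNNGAA, and a 3-unit element had GAA and TTC in turn over 3 units spaced in the same way, so that it always holds overlapping 2-unit elements. Of 66 member genes in the promoter table, 19 (28.8%) held a 2-unit element, against 17.0% of 27025 genes in the table. A 3-unit element was found in 4 members (6.06%), Dnajb6, Hspd1, Hspe1 and Hsph1, against 0.662% of all genes. Hspd1 and Hspe1, which encode HSP60 and its lid, sit head to head and share 285 bases of the window, so they count the same element. The windows of Hspa1a and Hspa1b differed at 4 of 300 bases. Of 8 genes of the inducible list with a window, 7 held a 2-unit element, and Dnajb1, the J-protein partner of inducible HSP70, did not. The list was chosen as stress-inducible targets of HSF1, so this count is not independent of the choice. It also counts both genes of each pair above, whose windows are shared or nearly the same. These matches describe letters in a window and do not show binding.

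Most chaperones were present in both clones, and those missing were mainly genes known from other tissues. An Hspa8 probe had no value after outlier spots were removed. Of the other 110 probes, 92 (83.6%) were well above background on both arrays, against 54.7% of all probes. By gene, 68 of 81 (84.0%) had a probe above background on both arrays, 2 (Hspa1a and Dnajb8) on the array of clone 1 alone, and 11 on neither. Of 16 members listed as typical of testis, muscle or nerve, 6 (37.5%) were above background on both arrays, whereas 62 of the other 65 (95.4%) were. The 6 were Hspa2 and Hspb9, both best known from testis, the testis form of a chaperonin subunit, Cct6b, the muscle proteins Hspb2 and Hspb6, and the J-protein gene Dnajb5. The 9 on neither array were Hspa1l, Dnajb3, Dnajb7, Dnajb13, Dnajc5b, Dnajc5g, Dnajc6, Hspb3 and Hspb7. Outside that list Cct8l1, a relative of Cct8, and Hspa12a, a distant HSP70 relative, were on neither array. With the software's looser flag, that a signal is positive and significant, 78 of 81 genes passed on both arrays (all probes, 75.7%), including 14 of the 16, so these absences depend on how background is drawn.

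The identity of the cells was read from marker lists. All 10 probes of 7 pluripotent and primed epiblast genes, among them Pou5f1, Nanog, Otx2 and Fgf5, were above background on both arrays, with a median difference between clones of -0.02. All 11 probes of fibroblast genes, such as Col1a2, Tagln and Vim, were also above background, and a further gene of that list, Col1a1, had no value. Their summed scaled signal was 116 in clone 1 and 127 in clone 2. The share of other cells in the cultures was not measured, and for a tissue or culture of several cell types, fewer cells of a type and less RNA per cell cannot be told apart.

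Signals are given below as log2 of the processed intensity over the 75th percentile of its array (819 in clone 1 and 726 in clone 2), called the scaled signal, and differences as clone 2 minus clone 1. The clones had nearly the same chaperone profile. The 92 probes measured on both arrays had a median difference of 0.06 and an SD of 0.29, against 0.02 and 0.42 for all 21497 probes measured. Only 1 member probe, for Dnajc5, was at least 2-fold higher in clone 2 (1.59% of all probes were), and 0 were in clone 1 (all probes, 1.19%). In either direction this was 1 of 92 members, against 2.78% of all probes. Past 1.5-fold there were 4 members (4.35%, against 9.57%), Dnajc5 and Hspb2 higher in clone 2 and Dnajc17 and Dnajc15 higher in clone 1. Probes printed 10 times on an array had a median SD between spots of 0.07 in clone 1 and 0.08 in clone 2, so 2 SD of a difference between single spots came to 0.21, or 1.16-fold. Beyond that lay 37 of 92 members (40.2%), 21 higher in clone 2 and 16 in clone 1, against 45.7% of all probes. This noise is between spots of an array and leaves out the spread between cultures.

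**Figure D1:**
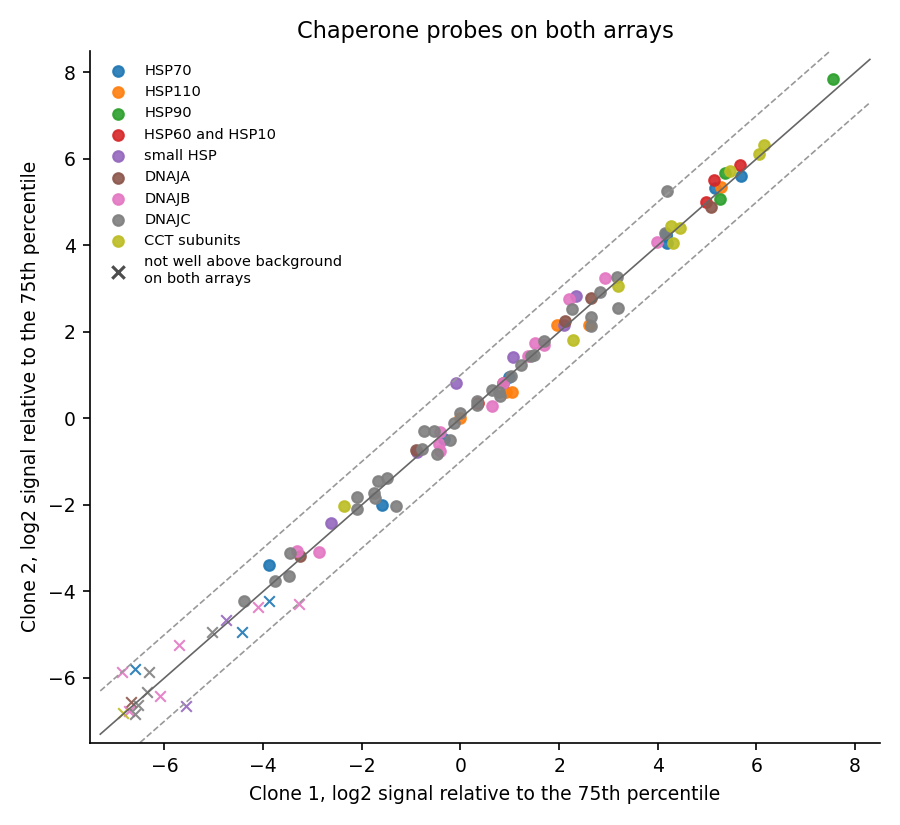
Scaled log2 signal of 110 chaperone probes in clone 1 (x axis) and clone 2 (y axis), relative to the 75th percentile of each array. Colours mark the chaperone classes, crosses mark probes not well above background on both arrays, the solid line marks equal signal and the dashed lines 2-fold. All but 1 of the 92 probes measured on both arrays lie within the dashed lines.

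How far members stood apart depended on the scaling. Over the 5 scalings the difference of a member probe spanned a median of 0.47 for the 11 probes with a mean scaled signal below -2, and of 0.17 for the 22 at 4 and above. The 5 scalings compared were the 75th percentile of all probes (the main scaling, used above), the same after normexp background correction, quantile normalization, the authors' deposited values, and the 75th percentile of detected probes. The share of member probes higher in clone 2 was 63.0% under the first (all probes, 53.4%), 52.2% with normexp (64.1%), 48.9% with quantile normalization (48.6%), 48.9% with the deposited values (48.8%) and 43.5% with detected probes (42.6%). Of the 92 probes, 33 were higher in clone 2 under all 5 scalings, 28 were higher in clone 1 under all 5, and 31 changed sign. Beyond spot noise under all 5 were 11 probes higher in clone 2 and 13 higher in clone 1. The higher ones were for Hspb1, Hspb2, Hspb8, Cct6b, Dnajb5, Dnajc5 (3 probes), and 1 probe each of Dnajb6, Hspe1 and Hspa13. The lower ones were for Hsph1 (both probes), Cct6a, Cct8, Dnajb9, Dnajc3, Dnajc15, Dnajc17, Dnajc8 (2 probes), and 1 probe each of Hspa4, Dnajb6 and Dnajc21. Counts over the 5 scalings were made for members only, so no share of all probes stands beside them. Under the main scaling alone, 40.2% of members and 45.7% of all probes were beyond spot noise. Normexp moved the median of all probes from 0.02 to 0.13, and the counts over 5 scalings use its differences as they are. Less that median, a reading added after seeing the data, 6 probes were beyond spot noise under all 5 in clone 2 (Hspb2, Cct6b, 1 probe each of Dnajb6 and Hspa13, and 2 of Dnajc5) and 15 in clone 1, where a second Dnajc21 probe and Hspa12b were added. Spot noise is also larger for dim probes, with 2 SD of a difference at 0.34 for repeated probes below -2, a limit that Hspa13 passed under all 5 and that Cct6b and the dim Dnajc5 probe did not. The software's own error of that Hspa13 probe was 0.31 in clone 1 and 0.24 in clone 2. Among all probes with a scaled signal of 4 and above the median difference was 0.13, against -0.03 for those below -2, and the 22 members of the bright group had a median of 0.09.

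**Figure D2:**
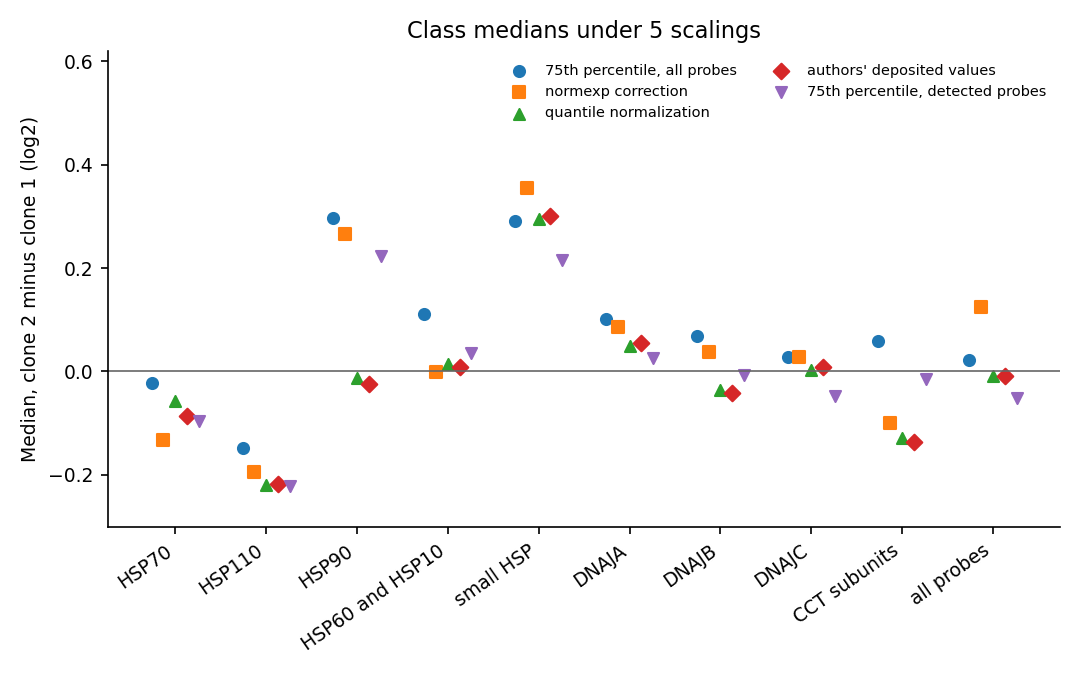
Median difference between clones (log2, clone 2 minus clone 1, y axis) of each chaperone class and of all probes under 5 scalings (symbols). Small heat shock proteins and DNAJA stay above 0, and HSP110 and HSP70 below 0, under all 5. The classes HSP90, HSP60 and HSP10, DNAJB, DNAJC and CCT subunits cross 0.

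The inducible set gave no common direction. Hspa1a, with Hspa1b the classic heat-induced HSP70, had an intensity of 55.2 in clone 1 and 39.0 in clone 2, scaled signals of -3.89 and -4.22, and was well above background in clone 1 alone. Its measured ratio was 1.26-fold higher in clone 1, with software errors of 0.27 in clone 1 and 0.33 in clone 2 (log2). Under the looser flag the probe was present on both arrays. In the other 13 probes of the list, from 8 genes, the median difference was 0.05 and the range -0.455 to 0.50, with 9 probes higher in clone 2, a count that ran from 5 to 9 over the 5 scalings. Dnajb1 was 3.99 in clone 1 and 4.08 in clone 2, a difference of 0.08. Dnaja1, another cytosolic J-protein partner of HSP70, differed by -0.20 and 0.07 in its 2 probes. Hsf1 itself had scaled signals of 1.34 and 1.44 (between -0.08 and 0.10 over the scalings), and Hsf2, a related factor, 1.57 and 1.51 (-0.21 to -0.06).

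HSP70 proteins went both ways. The median over 9 probes of 7 genes measured on both arrays was -0.02, and it was negative under all 5 scalings, down to -0.13 with normexp (-0.26 less its all-probe median). With outlier spots kept it came to 0.02, so its sign was not kept. Most apart were 1 Hspa13 probe (0.51, described with the endoplasmic reticulum) and Hspa12b (-0.42). Hspa8, the HSP70 present in unstressed cells, was 5.70 in clone 1 and 5.60 in clone 2 by 1 probe and 4.18 and 4.22 by another. Hspa14, which works at the ribosome with the J-protein Dnajc2, was 4.16 and 4.25, and Dnajc2 itself -0.01 and 0.12. Hspa2 was 0.99 and 0.96. The distant relative Hspa12b was -1.58 and -2.01, a difference of -0.42 that lay between -0.50 and -0.13 over the scalings. All probes of the class were within 1.5-fold under the main scaling, and the Hspa13 probe reached 1.78-fold with normexp.

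Among HSP110 proteins, the exchange factors of HSP70, Hsph1 was higher in clone 1 by both of its probes. This inducible gene had intensities of 5003 in clone 1 and 3237 in clone 2 at 1 probe and 1681 and 1118 at the other. The differences were -0.455 (1.37-fold) and -0.41 (1.33-fold), both higher in clone 1 under all 5 scalings, with folds between 1.33 and 1.49. None of the 5 and 7 measured spots around these probes was 2-fold apart. The related Hspa4 gave no single answer, with differences of 0.07, 0.20 and -0.31 in its 3 probes, and Hspa4l differed by 0.02. The class median was -0.15 over 6 probes, and -0.02 when each of the 3 genes counted once.

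Under the main scaling both cytosolic HSP90 probes were higher in clone 2 and that of the endoplasmic reticulum higher in clone 1, with 1 probe per gene. This was not kept under all other scalings, and none of the 3 probes was beyond spot noise under all 5. Hsp90aa1, the inducible cytosolic form, was 5.36 in clone 1 and 5.67 in clone 2, a difference of 0.31 that stayed above 0 under all 5 scalings (0.15 to 0.31). Hsp90ab1, the constitutive form, was 7.56 and 7.86, a difference of 0.30 that came to -0.01 with quantile normalization and -0.02 in the deposited values. Hsp90b1, the form of the endoplasmic reticulum, was 5.27 and 5.08, a difference of -0.18, within the spot noise of 0.21. It was higher in clone 1 under all 5 (-0.34 to -0.18).

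Most small heat shock proteins above background were higher in clone 2. All 6 probes measured on both arrays were higher in clone 2, with a median of 0.29 that lay between 0.22 and 0.35 over the 5 scalings, and 5 of 6 were higher under quantile normalization, the deposited values and detected probes, where Hspb11 changed sign. With the looser flag or no filter the median was 0.17, as Hspb7 (0.10) and Hspb3 (-1.08), which are not well above background, then counted too. Hspb2, a muscle protein, had intensities of 771 in clone 1 and 1288 in clone 2 and scaled signals of -0.09 and 0.83. The difference of 0.91 (1.88-fold) lay between 0.72 and 0.93 over the scalings, and at 0.60 with normexp less its all-probe median. None of the 4 measured neighbours of the Hspb2 probe on the array was 2-fold apart. Hspb1, the inducible small heat shock protein whose promoter above holds 2 elements, had intensities of 4143 and 5178 and scaled signals of 2.34 and 2.83, a difference of 0.50 (0.33 to 0.50). Hspb8, which works with the co-chaperone Bag3, was 1.07 and 1.43, and Bag3 2.21 and 2.43. With normexp less its all-probe median, Hspb1 came to 0.2095 and Hspb8 to 0.0968, both within the spot noise of 0.2125. Hspb9 was -2.63 and -2.41, Hspb6 -0.89 and -0.78, and Hspb11, a part of the transport machinery of cilia, 2.09 and 2.15. Cryab, the alpha-B crystallin gene that lies head to head with Hspb2, is not a member by name. It was 0.85 and 1.44 at 1 probe and -1.93 and -1.66 at the other, both higher in clone 2 under all 5 scalings (0.52 to 0.63 and 0.20 to 0.41). Of 11 fibroblast marker probes, 9 were higher in clone 2 (7 to 9 over the scalings), with a median of 0.12 (0.04 to 0.12). Of all probes, 53.4% were higher in clone 2 under the main scaling (median 0.02) and 64.1% with normexp (median 0.13). By scaled signal, the main all-probe median was -0.0026 at -2 to 2, 0.09 at 2 to 4 and 0.13 at 4 and above. Of 3 macrophage genes with a probe, Csf1r and Lyz2 were above background on both arrays and Cd68 in clone 2 alone. The measured macrophage probes differed by 0.83 and 0.09 for Csf1r and by -0.24 for Lyz2. The part of these other cells in the small heat shock protein differences was not tested.

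**Figure D3:**
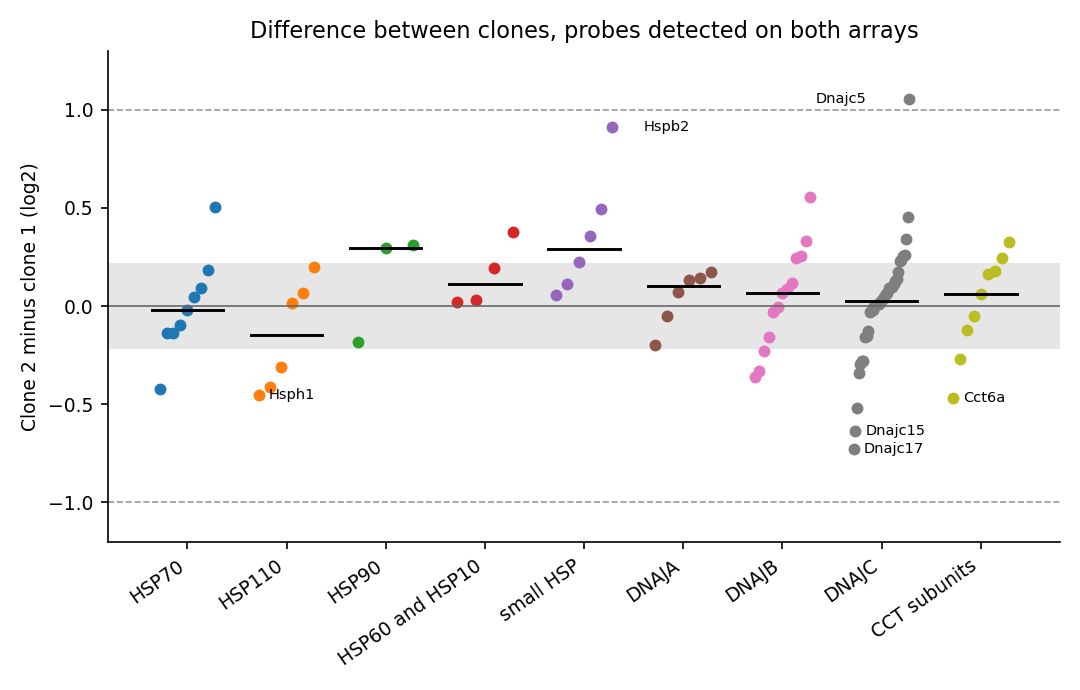
Difference between clones (log2, clone 2 minus clone 1, y axis) of each probe measured on both arrays, by chaperone class (x axis), under the main scaling. Bars mark class medians, the grey band 2 SD of spot noise (0.21) and the dashed lines 2-fold. Dnajc5 (1.05) and Hspb2 (0.91) stand highest, Dnajc17 (-0.73) and Dnajc15 (-0.64) lowest.

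Among mitochondrial chaperones, 1 of 13 probes, for an import factor, was past 1.5-fold under the main scaling (7.69%, against 9.57% of all probes). All 13 probes of 9 mitochondrial genes were above background on both arrays, with a median difference of 0.03 (-0.04 to 0.03 over the scalings). Hspd1, which encodes HSP60, was 4.97 in clone 1 and 5.00 in clone 2. Its lid Hspe1 was 5.66 and 5.85 at 1 probe, 5.14 and 5.52 at the next, and 0.35 and 0.37 at the third. The first, at 0.19 (0.01 to 0.19), and the next, at 0.38 (0.22 to 0.38), were higher in clone 2 under all 5 scalings. The first came to -0.06 with normexp less its all-probe median, and the third changed sign between scalings. Hspa9, the HSP70 of the matrix, was 4.19 and 4.06, and its J-protein Dnaja3 2.65 and 2.78. Dnajc15 and Dnajc19, both J-proteins of the import motor at the inner membrane, differed in how they compared. Dnajc15 had intensities of 7446 and 4252 and scaled signals of 3.18 and 2.55, a difference of -0.64 (1.55-fold, and 1.55 to 1.71 over the scalings). None of its 5 measured neighbours on the array was 2-fold apart. Dnajc19 differed by 0.10 and 0.02 in its 2 probes. Dnajc11, of the inner membrane organising complex, was printed 10 times on each array, with intensities of 674 to 905 in clone 1 and 593 to 716 in clone 2. Relative to each array these came to -0.13 and -0.10, so the raw ranges differ by about as much as the scaling between arrays, and a second probe was -1.72 and -1.85. Dnajc30 was 1.49 and 1.47, and Dnajc28 -4.39 and -4.22, a dim probe whose difference of 0.17 came to 0.70 with normexp.

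Chaperones of the endoplasmic reticulum did not move together. All 9 genes of that list were present on both arrays, with a median difference of -0.0011 over 12 probes, of which 6 were higher in clone 2 (3 to 6 over the scalings). Hspa5, the resident HSP70 known as BiP, was 5.15 in clone 1 and 5.34 in clone 2, a difference of 0.18 that lay between 0.03 and 0.18 over the scalings and at -0.02 with normexp less its all-probe median. Its J-protein partners varied. Dnajb9, a target of the unfolded protein response, was -0.41 and -0.74 (-0.33), and Dnajc3, an inhibitor of the kinase PERK, was 0.81 and 0.53 (-0.28), both higher in clone 1 under all 5. Dnajc10, a disulfide reductase, was 2.27 and 2.52 at 1 probe and -1.76 and -1.72 at another. Dnajb11 was 1.70 and 1.69, Dnajc1 0.78 and 0.62, and both Dnajc25 probes differed by 0.00, but by 0.34 and 0.50 with normexp and by -0.07 with detected probes. Hspa13, an HSP70-like protein of microsomes, was -0.33 and -0.47 at 1 probe and -3.89 and -3.38 at a dimmer one, so its probes pointed in opposite directions under all 5 scalings.

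All 8 subunits of the CCT ring, which are built into the complex in equal numbers, were present, with a median difference of 0.0030 and 4 subunits higher in each clone under the main scaling. Cct6a had the lowest difference, with intensities of 3996 in clone 1 and 2557 in clone 2 and scaled signals of 2.29 and 1.82, a difference of -0.47 (1.39-fold; 1.39 to 1.48 over the scalings). Of its 6 measured neighbours on the array, 1 was 2-fold apart. Cct8 (4.32 and 4.05, a difference of -0.27), Cct3 (3.19 and 3.07) and Tcp1 (4.45 and 4.40) were also higher in clone 1 under all 5 scalings. Cct7 (5.47 and 5.72) and Cct4 (4.26 and 4.44) were higher in clone 2 under all 5, though Cct4 came to -0.01 with normexp less its all-probe median. Cct5 (6.15 and 6.31) and Cct2 (6.05 and 6.11) changed sign between scalings. The testis form Cct6b was -2.35 and -2.02, a difference of 0.33 opposite to that of Cct6a. The median over the class was 0.06 under the main scaling and -0.10, -0.13, -0.14 and -0.01 under the others, so no direction holds for the chaperonin as a whole.

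J-proteins, the largest group, held the extremes in both directions. Of 45 J-protein genes, 38 were present on both arrays, and 55 of 67 probes had a median difference of 0.04. By class the medians were 0.10 for DNAJA, 0.07 for DNAJB and 0.03 for DNAJC, of which DNAJA kept its sign under all 5 scalings but came to -0.04 with normexp less its all-probe median, DNAJB turned to -0.035 with quantile normalization, -0.04 with the deposited values and -0.01 with detected probes, and DNAJC to -0.05 with detected probes. The 2-fold probe was for Dnajc5, the cysteine string protein, a chaperone of synaptic vesicles, at chr2:181286885-181286944 (mm9, plus strand). It had intensities of 15018 in clone 1 and 27633 in clone 2 and scaled signals of 4.20 and 5.25, a difference of 1.05 (2.07-fold). Over the scalings it lay between 0.93 and 1.05, and was at least 2-fold under the main one alone. The other 3 Dnajc5 probes were also higher in clone 2 under all 5 scalings, by 0.45, 0.34 and 0.23. They were far dimmer than the 2-fold probe. Their scaled signals in clones 1 and 2 were -0.74 and -0.29, -3.44 and -3.10, and -1.67 and -1.44. The 2-fold probe holds runs of bases that occur in probes of other genes, and the bases that any of these runs cover are in capitals.
Dnajc5 probe, 30 bases: gaactAGTTCCAGGACAGCCAGGActacac
Runs of at least 15 bases within these capitals were shared with 1 probe each of Elk1, F10, Kctd14 and Ttc19, which are unrelated to chaperones. Those probes differed between clones by 0.14, 0.15, -0.09 and 1.83. In clones 1 and 2 the scaled signals were 7.52 and 7.67 for Elk1 and 7.65 and 7.80 for F10. They were 7.62 and 7.54 for Kctd14, and 3.53 and 5.36 for Ttc19. The part of the shared stretch in the Dnajc5 difference was not tested.

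Several J-proteins were higher in clone 1. Dnajc17, found with splicing factors, had intensities of 331 in clone 1 and 177 in clone 2 and scaled signals of -1.31 and -2.03, a difference of -0.73 (1.65-fold). It came to -0.23 with normexp, and 2 of its 4 measured neighbours on the array were 2-fold apart, whose part in the value was not tested. Dnajc8, also of the spliceosome, was 2.64 and 2.13 at 1 probe, 2.64 and 2.36 at another, and 0.33 and 0.30 at the third, all higher in clone 1 under all 5 scalings. Dnajc21, which acts in the making of large ribosomal subunits, differed by -0.34 and -0.30 in its 2 probes, again under all 5. Other J-proteins were close to equal under the main scaling. These were Dnajc7, which works with HSP70 and HSP90 (3.18 and 3.27), Dnajc9, which binds histones (4.15 and 4.28), and Dnaja2 (2.11 and 2.25 at 1 probe, 0.86 and 0.81 at the other). Dnajb5 was 2.92 and 3.25, a difference of 0.33 that lay between 0.24 and 0.33 over the scalings and at 0.21 with normexp less its all-probe median. Dnajb8, a testis J-protein, had intensities of 85.0 and 37.1 and was above background in clone 1 alone. Its measured ratio was 2.03-fold higher in clone 1, with software errors of 0.20 in clone 1 and 0.33 in clone 2.

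Probes of the same gene did not always agree. For 17 genes with 41 measured probes, the spread of differences within a gene had a median of 0.19, and 9 genes had all probes on the same side of 0 under the main scaling. The spread reached 0.92 in Dnajb6, a J-protein that holds back aggregation of polyglutamine proteins. Its 4 probes differed between clones by 0.55, 0.07, -0.16 and -0.36. The first pair overlap, at chr5:30112855-30112911 and chr5:30112861-30112920 (mm9, plus strand), and have a run of 51 bases in common. Their first 30 bases are given with the common run in capitals.
Dnajb6 probe 1: gaccctCAAGGAGGAATGTATTTTAGTGCT
Dnajb6 probe 2: CAAGGAGGAATGTATTTTAGTGCTACTGAC
Probe 1 was 2.21 in clone 1 and 2.76 in clone 2, and probe 2 was 1.38 and 1.45. Probes that read nearly the same bases thus differed by 0.55 and 0.07. The overlapping Hspe1 probes, with a common run of 45 bases, differed by 0.38 and 0.19, and those of Dnajc24, with a run of 25, by 0.01 and -0.03. Of the 81 genes, 59 had a single probe, and for these the check could not be made.

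**Figure D4:**
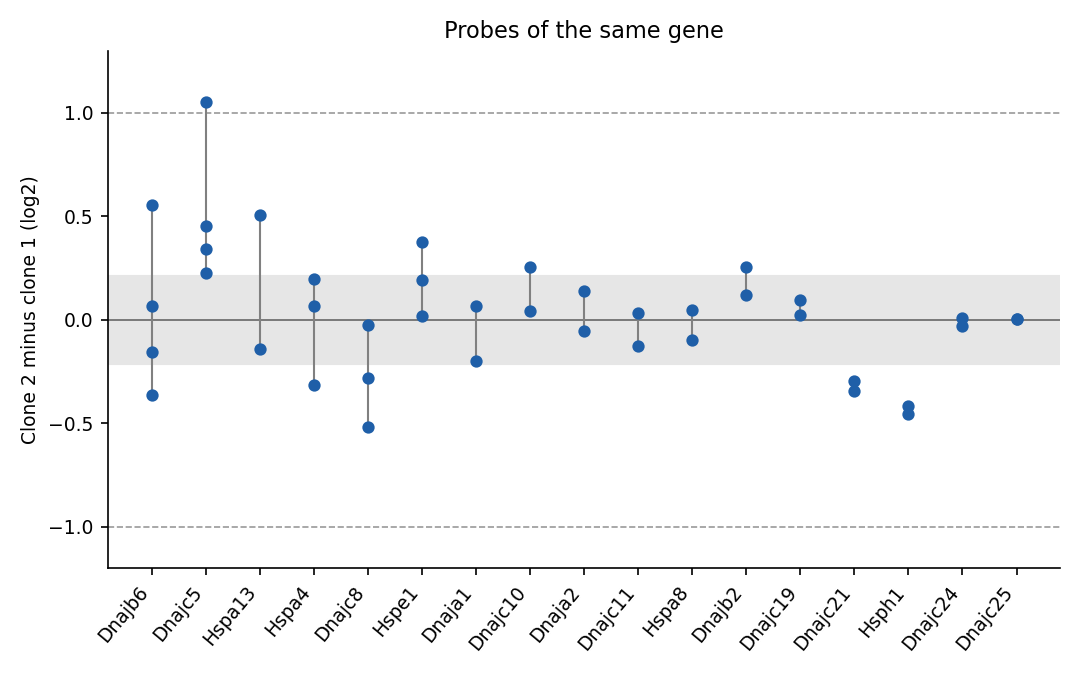
Difference between clones (log2, clone 2 minus clone 1, y axis) of each probe of the 17 genes with several probes measured on both arrays (x axis), under the main scaling. Lines join probes of a gene, the grey band marks 2 SD of spot noise and the dashed lines 2-fold. Dnajb6 spans 0.92, while the Hsph1 and Dnajc21 probes lie together below the band.

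Partners of these chaperones were likewise close. Of 55 co-chaperone and heat shock factor genes with a probe, such as HSP90 helpers and prefoldin subunits, 51 were present on both arrays. Their 65 measured probes had a median difference of 0.05 (-0.04 to 0.05 over the scalings), with 33 higher in clone 2 and 32 in clone 1 under the main scaling. Under the main scaling 0 were 2-fold apart (all probes, 2.78%), and 2 (3.08%, against 9.57%) were past 1.5-fold, a Cryab probe (0.59) and a probe of Sec63, the J-protein of the translocation pore (-0.93, with the other Sec63 probe at -0.35). Sec63 lay between -1.01 (2.01-fold) and -0.36 at the first probe over the scalings, and between -0.42 and 0.01 at the other.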

How the data were processed

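Per the file headers, the deposited spot intensities came from 1-colour Agilent scanner files (design 026655), which the software Feature Extraction (11.0.1.1, protocol GE1_1100_Jul11) had corrected for background and spatial trends, without normalization between arrays. The clones shared a slide and a scan. The headers place probes on build mm9 (NCBI37). A table of normalized intensity that the authors deposited served as an alternative, and the sources used here do not give its method. Its log2 values correlated across probes with the processed intensities at 0.999 and 1.00, and its differences at 0.993 with those after quantile normalization.

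After outlier spots were dropped, spots of the same probe were averaged as log2 intensity, less each array's 75th percentile. Detection required that 50% or more of a probe's spots carry the software's well-above-background flag. For a probe detected on 1 array, the fold, called a bound, was taken against the higher of its own signal and the lowest detected signal of the other array (-4.54 and -4.55). For Hspa1a and Dnajb8 the probe's own signal was the higher, so the fold is the measured ratio and not a lower limit. No probe of a member was saturated. Normexp (offset 50) used limma 3.58.1 (R 4.3.3), and quantile normalization was computed in Python. Counting was tested on simulated data. With 1 array per clone no p-value or standard error was computed, and the number of arrays limits the precision.

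Genes are named by rule (the inducible, endoplasmic reticulum, mitochondrial and CCT lists, the 10 brightest probes, the 5 largest differences each way, 2-fold differences and bounds, tissue-list genes detected on both arrays, Hsf1 and Hsf2), and further genes to complete a class. Members and lists were chosen with earlier results of these data known. LOC641192 was added after its value was seen.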

Additional observations from a re-analysis of the deposited data

How the results depend on the processing

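The count of member probes detected on both arrays and the median over all members moved by less than 0.11, the SD of a difference between single spots, or by less than 1.5 times, under all alternatives run. The single 2-fold member came to 0 with normexp, quantile normalization, the deposited values, the 75th percentile of detected probes, 1 value per gene name, and with that Dnajc5 probe left out, a setting chosen after seeing the data. Members at least 2-fold higher in clone 1 went from 0 to 2 (Dnajb8 and Hspb3) with the positive and significant flag and with no detection filter. With normexp the class medians came to -0.13 for HSP70, -0.0016 for HSP60 and HSP10 and -0.10 for CCT subunits. With quantile normalization they came to -0.012 for HSP90 and -0.13 for CCT subunits. With the deposited values they came to -0.024 for HSP90, -0.041 for DNAJB and -0.14 for CCT subunits. The small heat shock protein median came to 0.17 with the positive and significant flag and with no filter, both of which add dim probes, and the HSP110 median to -0.016 with 1 value per gene name. The cause of the other changes was not tested. For 54 named probes, 431 values under alternatives were computed, of which 361 moved by less than that SD, and 70 by more. Leaving out a replicate and a slide block could not be run with 1 array per clone on 1 slide, and the protein features planned were not run. No paired analysis was possible because each clone has 1 array. Ratios of dim probes near the background, as Hspa1a is, are uncertain.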

Other observations

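A probe named LOC641192, described in the scanner files as similar to an HSP70 cognate and not a member by name, was chosen after its values were seen. Its scaled signal was 0.66 in clone 1 and 2.38 in clone 2, a difference of 1.72 (3.29-fold), and it lay between 1.65 and 1.72 over the 5 scalings. The 2 Hspa8 probes, which report the HSP70 cognate gene itself, differed by -0.10 and 0.05. Ttc19, which shares a stretch with the 2-fold Dnajc5 probe, was 3.53 and 5.36 at that probe, a difference of 1.83 that lay between 1.70 and 1.83 over the scalings. Its other 3 measured probes lay between 0.11 and 0.24, between -0.15 and 0.31, and between -0.21 and 0.38.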
